A study of Mus musculus with 46 samples.

Results

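The data describe the subventricular zone (SVZ) tissue of mice after 14 days of the CSF1R inhibitor PLX3397, against the same tissue of untreated control mice. They comprise 10 of the 46 libraries of the series, the 5 titled ElimSVZ and the 5 titled ControlSVZ, chosen by these titles alone and read across all genes of the SVZ table. The study asked how myeloid cells return to a brain from which microglia have been eliminated. According to its methods, male C57BL/6 mice of 1.5 months received PLX3397 at 600 ppm in AIN-76A chow, or the vehicle chow as control, and were perfused before tissue lining the lateral ventricle was dissected from its front and side walls. The labels give these libraries a different dissection and library protocol, and neither source names a pool of animals. The tissue is whole, so each value sums the RNA of every cell type in the dissected layer, and where a gene fell in bulk tissue, fewer cells of a type and less RNA per cell cannot be told apart.

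Microglia are the resident macrophages of the brain and depend for survival on CSF1R, the receptor of the cytokines CSF1 and IL-34. PLX3397 blocks this receptor and, less selectively, the related kinases KIT and FLT3. The SVZ is a germinal niche along the ventricle that holds neural stem cells, neuroblasts and ependyma, next to the striatum and the white matter. Oligodendrocyte precursor cells (OPCs) are the dividing glia that give rise to myelinating oligodendrocytes, and they depend on signalling through PDGFRA, another receptor of the same kinase family.

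Values are FPKM, read counts divided by gene length and library depth, and fold changes are differences of log2(FPKM + 1). On this scale the change of a weakly expressed gene looks smaller than it was. Genes are called lower or higher at a Benjamini-Hochberg adjusted p under 0.05 in limma. The recovered depth was about 4.47 to 9.29 (in units of 1e6 reads) in the control libraries and 5.38 to 10.4 in the 14 day PLX3397 libraries, so that depth moves with the group. Control replicate 5, at 9.29, and 14 day PLX3397 replicate 5, at 5.38, are the deepest control and the shallowest treated library, and are set side by side where depth bears on a result. Control replicate 1 stands apart from the other 9 libraries, with a summed FPKM of 24895 over 12 choroid plexus genes against 116 to 253 in the others. *Ttr*, the transthyretin gene that choroid plexus epithelium expresses at a very high level, was at 20946 FPKM in that library and at 13.3 to 115 in the other controls. Calls that change without this library are given beside some of the genes concerned.

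Of the 15695 genes listed, 14151 reached an FPKM of 1 in at least 3 SVZ libraries and were tested. Of these, 171 were lower in 14 day PLX3397 tissue (1.21% of genes tested) and 8 were higher (0.0565%), and the median log2 fold change over all genes was 0.01. At an unadjusted p under 0.05, 526 genes were lower (3.72%) and 340 higher (2.4%). Without control replicate 1, 164 genes were lower and 7 higher, of which 156 and 3 were shared with the first calls. In 272 genes (1.92%) every 14 day PLX3397 mouse was below every control mouse, and in 120 (0.848%) every one was above. Of the 171 lower genes, 46 were left at under 5% of the control mean, 44 at 5 to 25%, 53 at 25 to 50% and 28 at 50% or more.

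**Figure D1:**
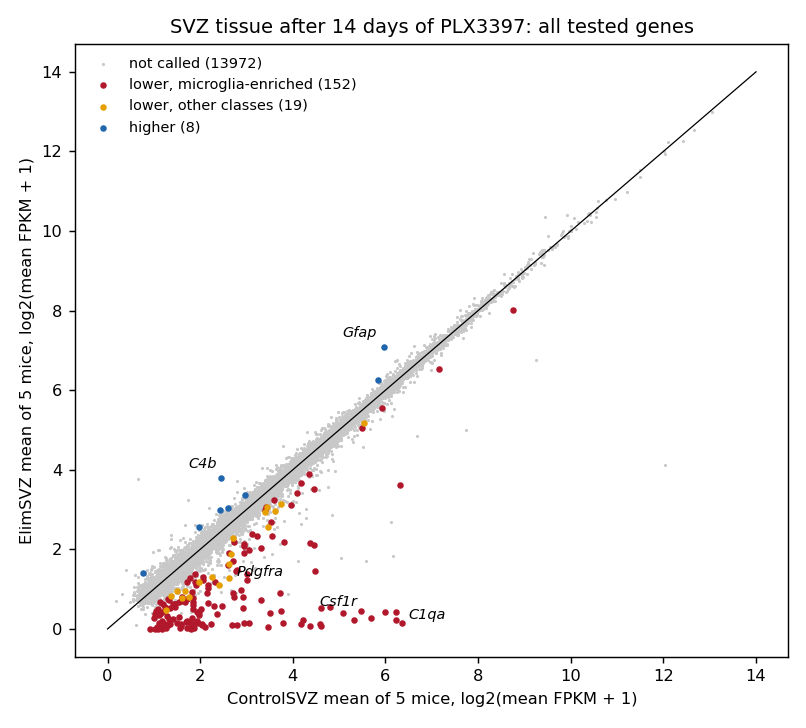
Mean level of the 14151 tested genes in 5 control mice (x axis) and 5 mice after 14 days of PLX3397 (y axis), both as log2(mean FPKM + 1), with the line of equality. Of the 171 lower genes, the 152 microglia-enriched genes (red) lie below the line, many of them near 0 on the y axis, while the other 19 lower genes (orange) and the 8 higher genes (blue) lie closer to it.

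The 15 genes with the largest fall were *C1qa*, *C1qc*, *Ctss*, *Tyrobp*, *C1qb*, *Csf1r*, *Fcer1g*, *Laptm5*, *Cx3cr1*, *Trem2*, *Fcrls*, *Tmem119*, *P2ry12*, *Fcgr3* and *Ly86*. Each of the 15 was below 2% of the control mean. Promoters of lower microglia-enriched genes were read because PU.1 (*Spi1*), the factor that specifies myeloid cells, is known to bind sites built around the letters GAGGAAGT. RefSeq promoter windows of GRCm38.p6 (250 bases before to 50 after each start site) matched 115 of the 152 lower microglia-enriched genes. These letters stood on either strand in 16 of the 115 (13.9%), in 51 of 502 microglia-enriched genes tested (10.2%) and in 997 of all 27025 genes with a window (3.69%). They stood in 35 of 387 enriched genes that were not called (9.04%) and in 347 of 10862 tested genes (3.19%). Among the 17 lower genes of other classes with a window, 0 held them, and at the share of tested genes few or none would. The 3 genes below were left at the lowest percent of control among 8 ranked genes with the letters upstream of the start site. The ranking did not take in every promoter, and *Csf1r* was outside it, so a gene left lower may have been missed. Each window shows the 250 bases before the start site, 5′ to 3′ on the strand of the gene. The letters or their reverse complement are in capitals. The start sites are those of the RefSeq windows, and for *C1qc* and *Cd37* they lie inside the outer bounds of the gene. *C1qc* lies on the minus strand at chr4:136892915-136893164, *Havcr2* on the plus strand at chr11:46454681-46454930 and *Cd37* on the minus strand at chr7:45238840-45239089.
C1qc: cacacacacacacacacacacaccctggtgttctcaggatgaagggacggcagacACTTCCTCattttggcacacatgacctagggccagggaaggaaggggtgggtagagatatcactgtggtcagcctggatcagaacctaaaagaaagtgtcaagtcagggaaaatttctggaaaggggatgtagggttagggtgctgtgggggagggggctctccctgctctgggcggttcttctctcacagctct
Havcr2: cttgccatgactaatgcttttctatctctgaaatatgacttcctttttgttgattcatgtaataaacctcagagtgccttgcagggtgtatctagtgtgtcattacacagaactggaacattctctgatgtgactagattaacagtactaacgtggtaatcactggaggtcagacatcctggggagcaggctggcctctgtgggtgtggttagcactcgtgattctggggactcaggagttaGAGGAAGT
Cd37: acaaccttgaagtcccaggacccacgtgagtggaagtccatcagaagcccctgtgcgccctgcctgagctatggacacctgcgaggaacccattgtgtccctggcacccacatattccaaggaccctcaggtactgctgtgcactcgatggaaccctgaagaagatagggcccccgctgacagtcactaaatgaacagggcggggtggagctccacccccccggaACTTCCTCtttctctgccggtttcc
A match of letters in a window is a description and not a measure of binding. *C1qc*, a chain of the complement component C1q, was left at 0.223% of control. *Havcr2*, which encodes the receptor TIM-3, was left at 1.45% (1.13 ± 0.38 against 0.0163 ± 0.037 FPKM, SD, n = 5 each). *Cd37*, a tetraspanin of leukocytes, was left at 2.52% (3.69 ± 0.55 against 0.0927 ± 0.12 FPKM).

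*Csf1r* was at 30.4, 39.9, 41.8, 38.2 and 43.8 FPKM in control replicates 1 to 5. In the 14 day PLX3397 mice it was at 0.230, 0.122, 0.1003, 0.0810 and 0.281 FPKM. The groups were far apart and every treated mouse was below 1 FPKM. The difference of *Csf1r* on the log2 scale was -5.09, with an SE of 0.14 and an adjusted p of 2.62e-13. *Csf3r*, the receptor of the granulocyte growth factor, fell from 1.10 ± 0.17 to 0.0424 ± 0.053 FPKM (adjusted p = 5.49e-06). *Csf2ra*, a receptor chain for the granulocyte-macrophage growth factor, was at 12.7 ± 2.3 FPKM in control and 12.9 ± 1.7 in 14 day PLX3397 tissue, and was not called (adjusted p = 0.999). Of the other kinases that PLX3397 is known to act on or that belong to the same family, *Kit* was at 6.86 ± 1.3 against 7.55 ± 0.60 FPKM, *Flt3* at 4.39 ± 0.98 against 3.91 ± 1.3 and *Pdgfrb* at 4.23 ± 0.56 against 3.73 ± 0.28, and none of the 3 was called (adjusted p = 0.999 each). *Pdgfra* was lower and is described with the OPC genes.

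Of 17 tested ligands and signals for microglial receptors, 1 was lower and 0 were higher, against 1.21% and 0.0565% of all genes tested. The lower gene was *Ccl12*, a chemokine gene that is itself microglia-enriched. *Ccl12* was listed at 0 in all 5 treated mice and at 0.322 to 2.18 FPKM in control. The ligands of CSF1R were not called. *Il34* was at 34.98 ± 6.5 FPKM in control and 36.6 ± 5.8 in 14 day PLX3397 tissue (adjusted p = 0.999). *Csf1* was at 4.12 ± 1.3 and 5.25 ± 0.96 FPKM, with overlapping groups and control replicate 5 at 6.37 (log2 fold change 0.31 ± 0.15, adjusted p = 0.846). Signals that neurons use to restrain microglia were not called either. *Cx3cl1*, the ligand of CX3CR1, was at 397 and 370 FPKM on average, *Cd200* at 73.3 and 81.5 and *Cd47*, a signal against phagocytosis, at 142 and 143 (adjusted p = 0.999 each). *Gas6* and *Pros1*, bridging ligands for the clearance of dying cells, were at 68.6 and 50.2 and at 5.95 and 4.46 FPKM (adjusted p = 0.934 and 0.764). The ligands of KIT and FLT3, *Kitl* and *Flt3l*, were at 8.32 and 7.15 and at 2.08 and 2.28 FPKM (adjusted p = 0.943 and 0.999).

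Complement genes were among the most reduced. The 3 chains of C1q, which starts the classical complement pathway, lie side by side on chromosome 4 of GRCm38 (*C1qb* at chr4:136880126-136886200, *C1qc* at chr4:136889801-136892936, *C1qa* at chr4:136895916-136898844). *C1qa* was at 62.8, 78.6, 81.1, 85.6 and 95.1 FPKM in the controls and at 0.308, 0.174, 0, 0.0967 and 0 in the treated mice. *C1qb* was left at 0.395% and *C1qc* at 0.223% of control. The groups did not overlap in any of the 3, and *C1qa* had the largest fold change of all tested genes (log2 fold change -6.19 ± 0.14, adjusted p = 3.12e-14). Of 6 tested genes of C1q and complement receptors, 5 were lower, against 1.21% of all genes tested. The median log2 fold change of the 6 was -3.26.

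The homeostatic signature of microglia fell as a group, with 22 of 25 tested genes lower, 0 higher and a median log2 fold change of -2.38. Over all genes tested, 1.21% were lower and 0.0565% higher. *P2ry12*, the purine receptor that guides microglial processes, was at 18.1, 25.5, 27.5, 21.2 and 24.5 FPKM in control and 0.286, 0.282, 0.706, 0.537 and 0.388 after treatment. *Tmem119* was at 19.2 to 30.7 FPKM in control and at 0.160, 0.226, 0.466, 0.201 and 1.22 in the treated mice, of which replicate 5 was the highest. *Cx3cr1*, the fractalkine receptor, was left at 0.223% and *Siglech* at 0.369%, the latter listed at 0 in 4 of the 5 treated mice. *Itgam*, which encodes CD11b, was left at 1.08% and *Aif1*, which encodes IBA1, at 2.84% (adjusted p = 3.43e-10 and 7.90e-10). *Ltc4s*, an enzyme of leukotriene synthesis, was at 71.6 FPKM in control replicate 1 and 7.81 to 9.36 in the other controls, against 1.07 to 2.31 after treatment. The log2 fold change of *Ltc4s* was -2.43 with control replicate 1 (adjusted p = 0.00442) and -1.85 without it (adjusted p = 4.44e-06). The 3 genes of the list that were not called were *Cst3*, *Sparc* and *Adgrg1*. *Cst3*, a secreted protease inhibitor, was at 2377 ± 70.0 FPKM in control and 2024 ± 106 after treatment (adjusted p = 0.563), although the groups did not overlap.

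Immunoreceptor genes followed the same direction, with 13 of 14 tested ITAM and Fc receptor genes lower and 0 higher. The counts in this paragraph stand against 1.21% lower and 0.0565% higher of all genes tested. *Tyrobp*, the adaptor DAP12, was left at 0.565%, its partner receptor *Trem2* at 0.357% and the Fc receptor gamma chain *Fcer1g* at 0.829%. *Trem2* was listed at 0 in 4 of 5 treated mice and at 0.409 FPKM in replicate 1. Among genes shared by leukocytes, 18 of 23 were lower and 0 higher, such as *Laptm5* and *Ly86*, left at 0.946% and 0.944%. *AF251705*, a receptor of the CD300 family, and *Clec4a3*, a C-type lectin, were called lower and listed at 0 in all 5 treated mice. In control they were at 1.52 to 2.93 and 0.474 to 1.64 FPKM. Both belong to families of close copies, and how reads shared between copies were counted is not given in the sources used here.

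Of 12 tested myeloid transcription factors, 3 were lower and 0 higher, against 1.21% and 0.0565% of all genes tested. *Spi1* fell from 5.95 ± 0.64 to 0.0772 ± 0.076 FPKM, *Irf8* from 3.08 ± 0.80 to 0.405 ± 0.17 and *Irf5* from 2.79 ± 0.39 to 0.344 ± 0.21, with no overlap in any of them. *Sall1*, a regulator of microglial identity also used by neural progenitors, was at 3.12 ± 0.29 and 2.41 ± 0.43 FPKM (adjusted p = 0.446).

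Lysosomal genes spanned the whole range, with 9 of 20 lower and 0 higher, against 1.21% and 0.0565% of all genes tested. Without control replicate 1, 6 of the 20 were lower. *Ctss*, the cathepsin of antigen presenting cells, was at 59.7, 67.3, 87.8, 76.6 and 78.1 FPKM in control and 0.493, 0.487, 0.143, 0.232 and 0.402 after treatment. *Lyz2*, lysozyme, was left at 7.05%, *Cd68* at 49.6% and *Ctsh* at 51.5%, where reads of *Lyz2* may be shared with the near-identical *Lyz1*. *Ctsc* was left at 22.6%, with control replicate 1 at 14.8 FPKM and the other controls at 3.98 to 6.01. Without that library the log2 fold change of *Ctsc* went from -1.51 to -1.23 (adjusted p = 0.000836 and 2.57e-05). The microglia-enriched lysosomal genes *Ctsd* (cathepsin D), *Grn* (progranulin) and *Hexa* (a hexosaminidase subunit) kept 60.1%, 73.8% and 76.3% (adjusted p = 0.0451, 0.0456 and 0.0366), and they were called in only 7, 6 and 7 of 20 fits. Without control replicate 1, *Ctsd* had an adjusted p of 0.0710.

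Among genes of other myeloid states and cell types, the counts are read against 1.21% of all genes called lower. Of 12 tested genes of disease-associated and white matter microglia, 1 was lower. It was *Ccl6*, a chemokine, which fell from 2.79 ± 0.83 to 0.155 ± 0.13 FPKM (adjusted p = 3.90e-06). *Apoe*, the lipoprotein gene that astrocytes express at a high level, was at 4112 ± 280.1 and 4151 ± 272 FPKM (adjusted p = 0.999). All 6 tested MHC class II genes had log2 fold changes below 0 and 0 were called. *Cd74*, the invariant chain, was at 29.1, 9.42, 5.19, 3.90 and 5.94 FPKM in control and 1.34 to 4.87 after treatment, and *H2-Aa* at 6.86 FPKM in control replicate 1 against 0.590 to 2.05 in the other controls. Without control replicate 1, the median log2 fold change of the 6 genes went from -0.78 to -0.46. Of 5 tested genes of border macrophages, the macrophages of meninges, vessels and choroid plexus, 1 was lower. That gene was *Cbr2* (1.18 ± 0.47 against 0.111 ± 0.15 FPKM, adjusted p = 0.0347), which was called in only 8 of 19 fits and not without control replicate 1 (adjusted p = 0.102). Without that library the median log2 fold change of the 5 genes went from -0.55 to -0.28. With no filter on low values, 5 of 8 genes of this list were lower. *Pf4* was at 2.01 ± 1.3 and 0.326 ± 0.36 FPKM (adjusted p = 0.0622). *Mrc1*, the mannose receptor that defines these cells, did not pass the filter, with 0.533 to 0.730 FPKM in control and 0 to 0.0341 after treatment. Of 4 tested genes of monocytes, neutrophils and lymphocytes, 0 were called.

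The genes that fell were then compared with those of sorted myeloid cells of control mice, libraries that do not enter the contrast. A gene was called microglia-enriched where its mean FPKM was at least 5 times that of control SVZ tissue in both sorted control sets, of 3 and 4 libraries. The tables were normalized separately and control SVZ tissue enters both the ratio and the fold change, so what follows is a description. Of 659 microglia-enriched genes tested, 152 were lower (23.1%) and 0 were higher. Of all other tested genes, 19 were lower and 8 higher. The level left in treated tissue decreased with the ratio. The median was 92.3% of control for 280 genes with a smaller ratio of 5 to 10, and 81.2% for 163 genes at 10 to 20. It was 55.3% for 97 genes at 20 to 40, 14.9% for 96 genes at 40 to 80 and 7.05% for 23 genes above 80. Over the 119 genes with a ratio of 40 or more, the 5 treated mice had medians of 10.5, 12.5, 14.4, 12.7 and 16.9% of the control mean. The 5 control mice had medians of 87.5 to 109%, so that no treated mouse came near a control.

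**Figure D2:**
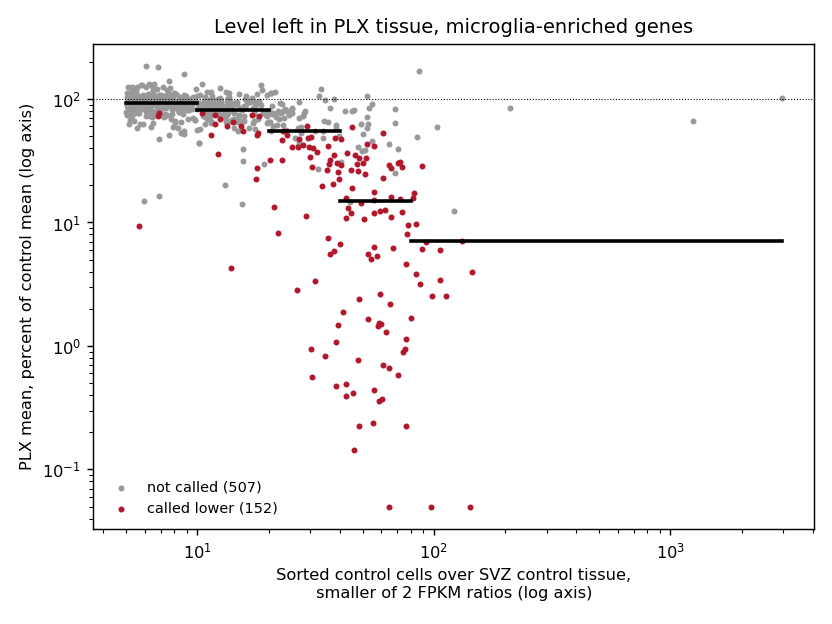
Level left after 14 days of PLX3397 as percent of the control mean (y axis, log scale) for the 659 microglia-enriched genes, against the smaller of their 2 ratios of sorted control cells to control SVZ tissue (x axis, log scale). Black bars are the medians of 5 bins, which go from 92.3% to 7.05%. The 3 genes listed at 0 in treated tissue are drawn at 0.05%, and genes called lower are red.

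Some genes with high levels in sorted cells were kept in the tissue. Of the 119 genes with a ratio of 40 or more, 90 were lower, 37 were left at under 5% of control, and 10 kept at least 80%. The 10 were *Uba7*, *Lsp1*, *Trim14*, *Jun*, *Zfp36*, *Ier2*, *Fosb*, *S100a8*, *Hp* and *Anxa1*, and none was called. Of these, *Jun*, *Fosb*, *Ier2* and *Zfp36* are immediate early genes, which many cells induce within minutes of handling. *S100a8* and *Hp* are genes of neutrophils. *Anxa1*, annexin A1, was at 0.945 ± 0.19 and 1.58 ± 0.58 FPKM (adjusted p = 0.526). Among all 659 enriched genes, *Irf7*, a regulator of interferon genes, kept the highest percent. It was at 1.74, 1.18, 0.897, 1.48 and 1.53 FPKM in control and 3.23, 2.23, 2.30, 1.74 and 3.12 after treatment. The treated mice were all above the controls by a narrow margin, and the gene was not called (log2 fold change 0.57 ± 0.14, adjusted p = 0.0563). Without control replicate 1, *Irf7* was called higher. The other 9 enriched genes that kept the highest percent were *Asf1b*, *Anxa1*, *Kcnn4*, *S100a4*, *Bid*, *Cd44*, *Icosl*, *Snord17* and *Chek2*, at 130% (*Chek2*) to 183% (*Asf1b*) of control, and none was called.

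Outside the microglia-enriched genes, the lower genes that belong to a gene list were mostly those of OPCs and of oligodendrocytes before myelination. Of the 19 lower genes of other classes, 6 were members of these 2 lists. By their levels in sorted control cells, 6 of the 19 were below control SVZ tissue in both sets. Another 5 were missing from a sorted set, and 8 lay between these classes and the enriched class. Among 23 tested OPC genes, 4 were lower (*Pdgfra*, *Susd5*, *Cspg4* and *Matn4*) and 0 higher. Of all genes tested 1.21% were lower, and the list was chosen with earlier results of these data known. The median log2 fold change of the list was -0.25, and 19 of 23 genes were below 0.

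*Pdgfra*, at chr5:75151322-75198206 of GRCm38, encodes the growth factor receptor that keeps OPCs dividing. It was at 5.13, 4.84, 5.03, 5.66 and 5.35 FPKM in control and 1.65, 1.99, 1.67, 2.44 and 2.78 after treatment. The highest treated mouse was well below the lowest control, and the log2 fold change was -1.01 ± 0.10 (adjusted p = 3.91e-06), or 40.5% of control. *Cspg4*, at chr9:56865104-56899870, encodes the proteoglycan NG2 of OPCs and pericytes. It was at 2.36, 3.15, 2.88, 3.13 and 3.18 FPKM in control and 0.926, 1.55, 1.06, 1.51 and 1.29 after treatment. The groups did not overlap (log2 fold change -0.80 ± 0.15, adjusted p = 0.00582). *Susd5* fell to 34.4% and *Matn4*, an extracellular matrilin, to 39.2% of control (adjusted p = 0.00271 and 0.0202). Among 14 tested genes of premyelinating oligodendrocytes, 2 were lower and 0 higher, against 1.21% and 0.0565% of all genes tested. *Neu4*, a sialidase, had the largest fall of the genes called outside the enriched class, with 3.30, 3.49, 5.36, 4.55 and 4.98 FPKM in control and 0.937, 1.82, 0.689, 1.37 and 0.925 after treatment (log2 fold change -1.32 ± 0.16, adjusted p = 5.48e-05). *Fyn*, a kinase that acts early in myelination, fell from 9.63 ± 0.54 to 6.70 ± 0.87 FPKM (adjusted p = 0.00426).

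**Figure D3:**
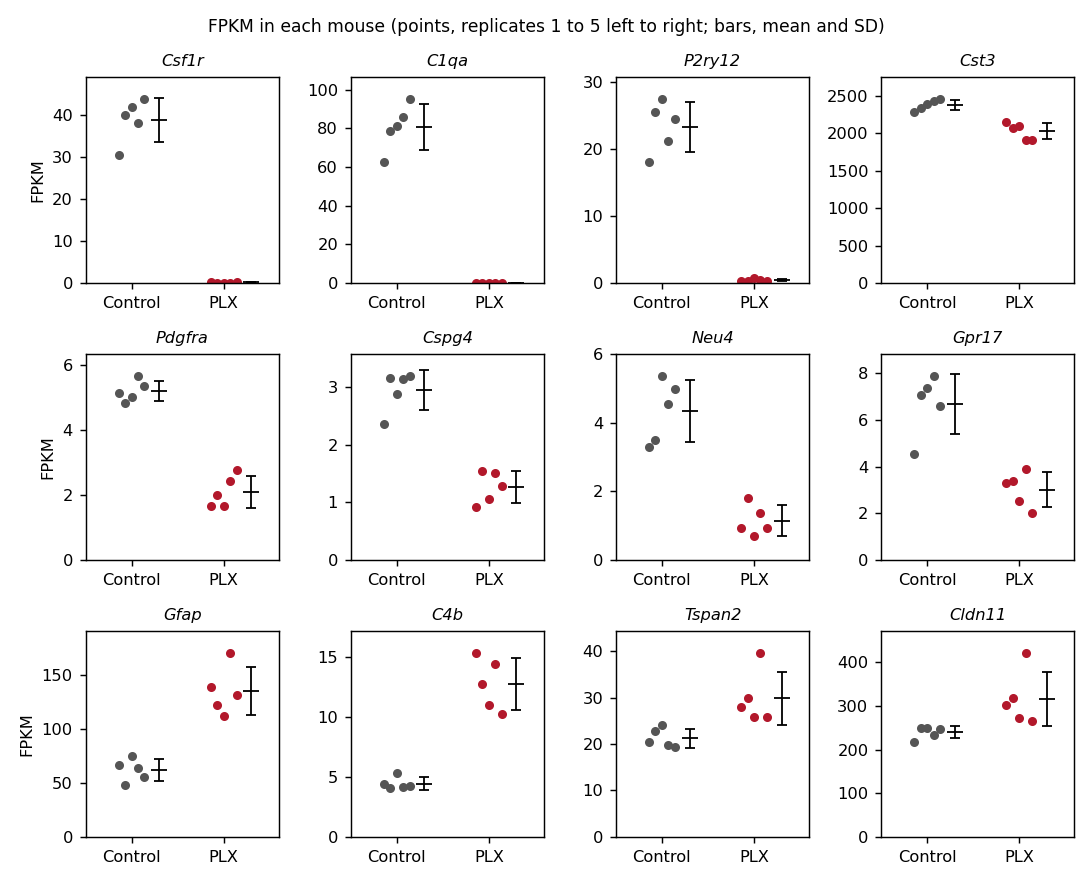
FPKM of 12 genes in each control and each 14 day PLX3397 mouse (points) with the mean and SD of 5 mice (bars), all y axes from 0. *Csf1r* and *C1qa* were near 0 in treated mice, *P2ry12* was left at 1.88%, the OPC genes *Pdgfra* and *Cspg4* and the premyelinating gene *Neu4* did not overlap between groups, and *Gfap* and *C4b* were higher in every treated mouse.

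Other genes of the lineage had lower values without passing the threshold. *Gpr17*, a receptor of committed OPCs, was at 4.53 to 7.87 FPKM in control and 1.99 to 3.89 after treatment, with no overlap (log2 fold change -0.94 ± 0.25, adjusted p = 0.105). *Gpr17* was called lower in 1 of 19 fits. *Olig2*, the transcription factor of the whole lineage, was at 12.8 ± 2.3 and 8.22 ± 1.9 FPKM (adjusted p = 0.138), and *Sapcd2* at 1.18 ± 0.37 and 0.529 ± 0.17 (adjusted p = 0.0913). *C1ql1*, a secreted protein of OPCs, ranged from 7.20 to 24.3 FPKM in control and from 3.50 to 15.98 after treatment, and was not called (adjusted p = 0.614). Both *Olig2* and *Sapcd2* were called lower without control replicate 1. *Matn4*, called in 12 of 19 fits, lost its call there, and 5 OPC genes were lower. With depth as a covariate, *Pdgfra* and *Neu4* were still called, whereas *Cspg4*, *Susd5*, *Matn4* and *Fyn* were not (adjusted p = 0.0694, 0.0638, 0.255 and 0.0823). Their log2 fold changes in that fit were -0.79, -0.76, -0.87 and -0.43, against -0.80, -0.84, -0.96 and -0.47 without the covariate. The deepest control library, replicate 5, had 5.35 FPKM of *Pdgfra*, 3.18 of *Cspg4* and 4.98 of *Neu4*, against 2.78, 1.29 and 0.925 in the shallowest treated library, replicate 5.

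Of 26 tested genes of mature oligodendrocytes, 0 were called in either direction, where 1.26% of all genes tested were. Their values were mostly above 0, with 25 of 26 log2 fold changes positive and a median of 0.25. *Tspan2* was at 19.4 to 24.01 FPKM in control and 25.8 to 39.6 after treatment (adjusted p = 0.0527), *Mal* at 97.4 ± 5.8 and 137 ± 24 (adjusted p = 0.401) and *Cldn11*, a tight junction protein of myelin, at 240 ± 14 and 316 ± 63 (adjusted p = 0.262). Treated replicate 4 had the highest summed level of the list, 8504 FPKM against 4774 to 6055 in the other treated mice and 4345 to 5418 in control. Without it the median log2 fold change was 0.13 and 21 of 26 genes were above 0. With depth as a covariate the median was 0.14, again with 21 of 26 above 0. In treated replicate 4 the summed level of striatal projection neuron genes was 2765 FPKM against 3358 to 5141 in the other treated mice. In control replicate 4 that sum was 2588 against 3802 to 5448 in the other controls. The part of the dissection in these differences was not tested.

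**Figure D4:**
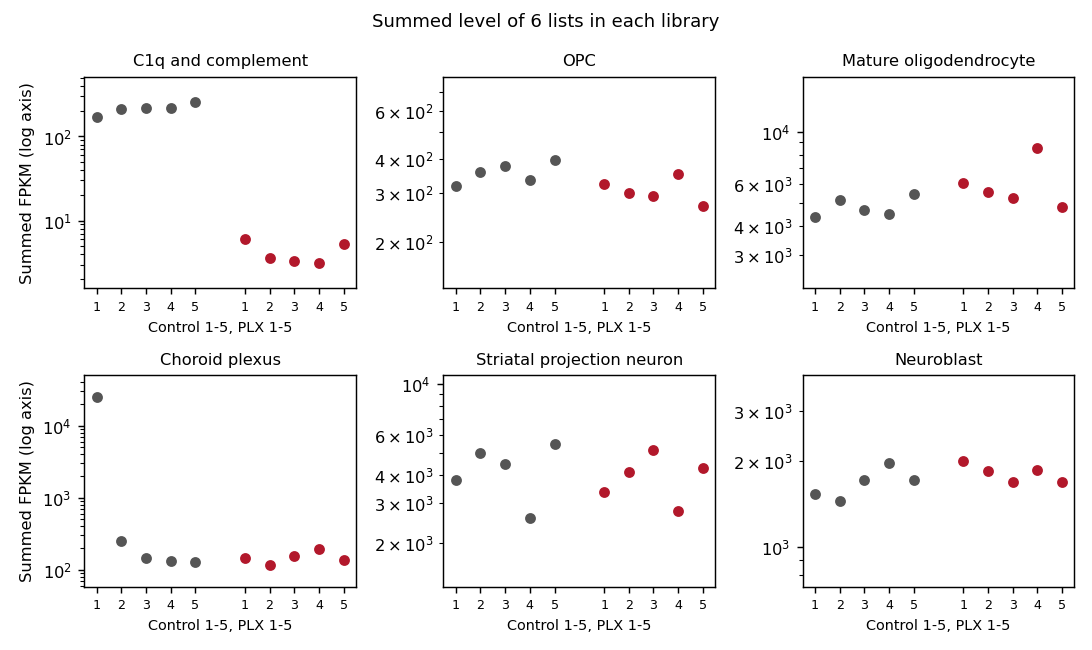
Summed FPKM (y axis, log scale) of 6 gene lists in each of the 5 control and 5 treated libraries, replicates 1 to 5 from left to right. C1q and complement genes were low in all 5 treated libraries, control replicate 1 stood apart in choroid plexus genes, and treated replicate 4 was the highest in mature oligodendrocyte genes.

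The remaining 13 lower genes of other classes were of varied function. They included the 8 genes between classes, some of them well above control tissue in sorted cells. *Fam89a* was at 7.06 and 3.77 times control tissue in the 2 sorted sets and *Mob1a* at 4.37 and 5.86. *Pgk1* was at 0.298 and 2.16 times, and *Snx22*, not enriched, at 0.112 and 0.264. *Tmem255b* fell from 5.14 ± 1.3 to 1.45 ± 0.33 FPKM, *Fam89a* from 2.40 ± 0.62 to 0.736 ± 0.41 and *Lad1*, a basement membrane protein, from 1.41 ± 0.35 to 0.387 ± 0.054 (adjusted p = 1.99e-05, 0.00327 and 0.00102). *Snx22*, a sorting nexin, fell to 50.1% and the sulfotransferase *Chst5* to 43.3% of control (adjusted p = 0.00205 and 0.0323). *Ccnd1*, cyclin D1, which drives entry into the cell cycle, was at 10.4 to 13.7 FPKM in control and 6.01, 6.46, 7.09, 10.4 and 9.37 after treatment, with groups that overlap (adjusted p = 0.0183). *Spry1*, an inhibitor of receptor kinase signalling, fell to 49.0%, *Tmem100* to 60.0% and the small heat shock protein *Hspb1* to 48.8% (adjusted p = 0.0322, 0.0303 and 0.0183). *Eid2*, *Mob1a*, *Pgk1* (a glycolytic enzyme) and *Hist3h2a* (a histone) fell to 51.6%, 69.3%, 75.4% and 78.1%, with adjusted p between 0.0338 and 0.0468. These last calls were lost in most other fits, with *Eid2* called in 6 of 19, *Mob1a* in 8 of 19, and *Pgk1* and *Hist3h2a* in 8 of 20 each. *Chst5* was called in 9 of 19 and *Spry1* in 8 of 19. *Ccnd1* and *Tmem100* were called in 11 of 20 each and *Hspb1* in 14 of 20. Histone genes and *Pgk1* have close copies, and reads shared with them cannot be told apart here.

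Of the 8 genes that rose, *C4b* and *Gfap* had the largest differences on the log2(FPKM + 1) scale, while *Shmt1*, at a low level, had the second highest percent of control (233%). *Gfap*, the intermediate filament of reactive astrocytes and of SVZ stem cells, lies at chr11:102887336-102897200 of GRCm38. It was at 66.9, 48.2, 74.9, 64.4 and 55.9 FPKM in control and 139, 123, 112, 171 and 132 after treatment. Every treated mouse was far above every control (log2 fold change 1.11 ± 0.18, adjusted p = 0.00127), at 218% of the control mean. *C4b*, complement component C4 at chr17:34728139-34743902, was at 4.40, 4.05, 5.35, 4.13 and 4.27 FPKM in control and 15.3, 12.8, 11.04, 14.4 and 10.2 after treatment. *C4b* had the largest rise of the 8 (log2 fold change 1.33 ± 0.21, adjusted p = 0.00139), at 287% of control, where its reads may be shared with the near-identical copy *C4a*. So while the C1q chains of the same pathway fell to under 1%, *C4b* rose. In the deepest control and the shallowest treated library, *Gfap* was at 55.9 and 132 FPKM and *C4b* at 4.27 and 10.2. Both were called in all 20 fits, depth as a covariate included.

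The other 6 genes that rose share no list. *Pstpip2*, an adaptor of the actin cytoskeleton, rose from 2.91 ± 0.65 to 4.95 ± 0.91 FPKM, and *Shmt1*, an enzyme of folate metabolism, from 0.703 ± 0.35 to 1.63 ± 0.25 (adjusted p = 0.0183 and 0.0202). *Tmem74b* rose from 4.36 ± 1.1 to 6.89 ± 0.61 FPKM and *Cyb5d1* from 5.10 ± 0.45 to 7.29 ± 0.78 (adjusted p = 0.0292 and 0.0328). *Cpne6*, a calcium-binding copine of neurons, rose from 56.4 ± 7.7 to 75.1 ± 5.4 FPKM and *Srd5a1*, the steroid 5-alpha-reductase, from 6.78 ± 0.44 to 9.26 ± 0.75 (adjusted p = 0.0341 and 0.0366). Without control replicate 1, *Shmt1* was still called and the other 5 were not, and with depth as a covariate none of the 6 was. *Cirbp*, the cold-inducible RNA-binding protein, was at 74.1 ± 11 and 106 ± 9.2 FPKM with no overlap and an adjusted p of 0.0552. Control replicate 1 was the highest control of *Cirbp* at 93.3 FPKM, and without it the gene was called higher (adjusted p = 0.0121).

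Of 25 tested genes of reactive astrocytes, 2 were higher (*Gfap* and *C4b*) and 2 lower (*Hspb1* and *Psmb8*), with a median log2 fold change of 0.05. Of all genes tested, 0.0565% were higher and 1.21% lower. *Psmb8*, a subunit of the immunoproteasome that is also microglia-enriched, fell to 51.2% of control (adjusted p = 0.00130). *Serpina3n*, a protease inhibitor induced in reactive astrocytes, was at 10.3 ± 2.8 and 13.5 ± 2.9 FPKM (adjusted p = 0.872), and *S100a6* at 21.6 ± 4.5 and 29.0 ± 2.3 (adjusted p = 0.267). *S100a6* was highest among controls in replicate 1 (28.2 FPKM), and without that library it was called higher (adjusted p = 0.0495). Of 26 tested genes of astrocyte identity, 0 were called, and their median log2 fold change was 0.01.

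Of all genes tested 1.26% were called in either direction, so that lists of this size would hold few or no calls at the share of all genes. In limma, 0 of 24 tested neuroblast genes, 0 of 24 genes of neural stem cells and proliferation, 0 of 23 ependymal genes, 0 of 20 striatal projection neuron genes, 0 of 21 general neuron genes and 0 of 22 endothelial genes passed the threshold in either direction. Their median log2 fold changes lay between -0.14 for endothelium and 0.09 for neuroblasts over all 10 libraries. The ependymal median went from -0.01 to 0.23 without control replicate 1, with 20 of 23 genes above 0. The striatal median lay between -0.24, without control replicate 4, and 0.03, without treated replicate 4, so that its sign rests on single libraries. *Dcx*, the microtubule protein of migrating neuroblasts, was at 2.81 ± 0.13 and 3.07 ± 0.22 FPKM (adjusted p = 0.999). *Thbs4*, a thrombospondin of SVZ astrocytes and stem cells, was at 3.45 ± 1.3 and 5.22 ± 0.81 FPKM (adjusted p = 0.526). *Foxj1*, the factor of ciliated ependyma, was at 1.61 to 10.05 FPKM in control and 5.07 to 10.9 after treatment (adjusted p = 0.996). *Cldn5*, the claudin of brain endothelium, was at 134 ± 11 and 122 ± 15 FPKM (adjusted p = 0.997). Of 16 tested mural and fibroblast genes, only *Pdgfra*, which fibroblasts also express, was lower.

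All 11 tested choroid plexus genes had log2 fold changes below 0, with a median of -0.90 and 0 calls. Without control replicate 1, 9 of the 11 were above 0 and the median was 0.14, so the direction rests on that library. 

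**Figure D5:**
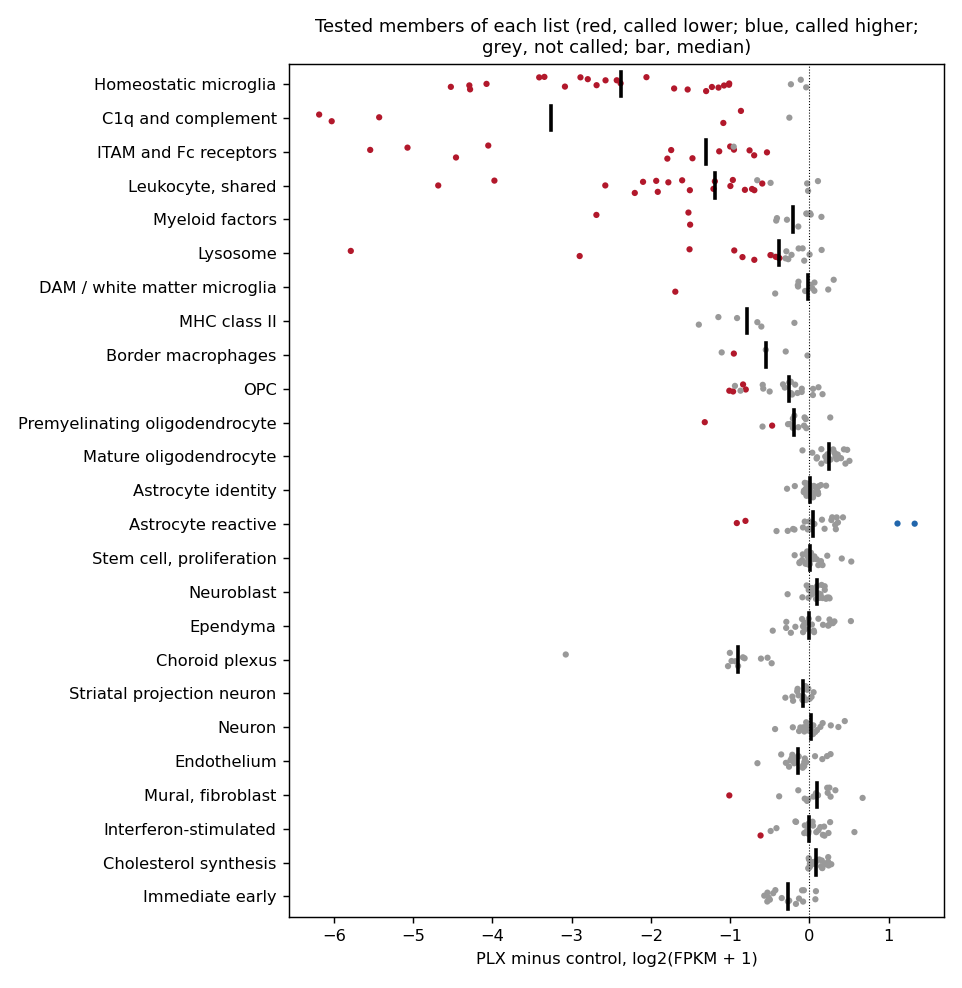
Log2 fold change of every tested member of 25 gene lists (points, x axis, PLX3397 minus control on the log2(FPKM + 1) scale) with the median of each list (black bar). The lists of microglia and leukocytes spread to the left, OPC genes have 4 called members on the left, mature oligodendrocyte genes lie to the right of 0 without a call, and only *Gfap* and *C4b* of the reactive astrocyte list are called higher (blue).

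Of 23 tested interferon-stimulated genes, 1 was lower and 0 higher, where 1.26% of all genes tested were called in either direction. The lower gene was *B2m*, the light chain of MHC class I, which is also microglia-enriched. *B2m* was at 169, 134, 152, 132 and 118 FPKM in control and 86.6, 84.4, 91.7, 89.1 and 104 after treatment (log2 fold change -0.62 ± 0.09, adjusted p = 0.000760). *Tgfbr1*, a receptor of the TGF-beta pathway that is microglia-enriched, fell to 41.5% (adjusted p = 0.000107). Of 25 tested genes of cholesterol synthesis, 21 were above 0 with a median log2 fold change of 0.08 and 0 calls, *Sc5d* at 45.3 ± 2.8 and 52.4 ± 2.7 FPKM (adjusted p = 0.262) and *Lss* at 14.3 ± 2.2 and 17.5 ± 1.6 (adjusted p = 0.442) among them. Of 17 tested immediate early genes, 15 were below 0 with a median of -0.27 and 0 calls. Their summed level ranged from 306 to 816 FPKM in control and from 295 to 560 after treatment.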

How the data were processed

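Gene expression was measured by RNA-seq of whole SVZ tissue of 5 control and 5 PLX3397-treated mice. The authors deposited FPKM per gene. The submitters' processing notes name STAR, featureCounts, edgeR, limma and mm10, without versions. Of these, the methods of the study give a version for STAR. The methods describe a Smart-seq2 protocol and the labels another extraction, and neither gives strand-specific counting. The methods give replicates as separate mice.

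From the deposited FPKM, log2(FPKM + 1) was fitted with limma 3.58.1 (R 4.3.3, variance trend, 15 SVZ libraries sharing 1 estimate of the spread, no covariates) over genes with an FPKM of at least 1 in at least 3 libraries, with Benjamini-Hochberg adjustment over all 14151 genes. Each call used an adjusted p under 0.05, and the fit was tested on simulated data. Relative depth was recovered from the steps of low FPKM values, of which 99.7% were whole reads within 0.02 reads. Its absolute scale is approximate. At these depths 1 read of a 2 kb gene is 0.048 to 0.112 FPKM. Symbols that a spreadsheet had turned into dates (25) were replaced through gene IDs, of which 15278 of 15695 matched RefSeq GRCm38.p6, the source of coordinates and promoters. Python 3.11.15, pandas 2.3.3, numpy 2.4.6 and matplotlib 3.10.9 were used.

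Genes named are the 15 called lower with the largest fall, all called higher, all called lower outside the enriched class, the 10 enriched genes that kept the highest percent, the not enriched genes with the smallest p in each direction (10 each), and from each list up to 4 members with the smallest p, its defining members, and the kinase targets and ligands. Other genes, such as those with promoters shown, the 10 kept at a ratio of 40 or more, and *Irf5* and *Ttr*, were named after their values were seen. Members and lists were chosen with earlier results of these data known. Alternatives were a pseudocount of 0.1, other filters, scalings and fits, depth as a covariate, a replicate block and leaving out each mouse. Same-numbered mice were not paired. Some items are not reported here.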

Additional observations from a re-analysis of the deposited data

Results flagged for a closer look

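A sample was singled out where, in a group of 5, its gap to the nearest other exceeded 0.71 of the range of the group (Dixon's test). Of 246 groups examined, 30 had such a sample, and chance gives about 1 in 20.

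Among controls, FPKM stood apart for *Ttr* (20946), *Ltc4s* (71.6), *Ctsd* (636), *Cd74* (29.1), *H2-Aa* (6.86), *Ctsc* (14.8), *Ctsh* (12.6), *Cirbp* (93.3) and *Trem2* (15.5), all in control replicate 1, which was the lowest in *Trem2* and the highest in the others. The same library stood apart in the summed FPKM of choroid plexus genes (24895), MHC class II genes (85.4), border macrophage genes (21.8), endothelial genes (1634), mural and fibroblast genes (208) and interferon-stimulated genes (530). In other controls, *Irf8* (4.46) and *Csf1* (6.37) stood apart in replicate 5, *C4b* (5.35) in replicate 3 and *Cyb5d1* (5.89) in replicate 4.

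After 14 days of PLX3397, *Tmem119* (1.22), *Fcrls* (0.182), *Itgam* (0.155), *Cbr2* (0.356) and *Csf3r* (0.135) were highest in replicate 5. *Trem2* (0.409), *Siglech* (0.186) and *Havcr2* (0.0817) were highest in replicate 1, the only treated mouse in which these 3 genes were not listed at 0. *Snx22* (3.40) and *Olig2* (11.5) were highest in replicate 4. The summed FPKM of interferon-stimulated genes stood apart at 282 in replicate 5.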

How the results depend on the processing

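The 8 higher calls became 4 with depth as a covariate, 2 with a mean FPKM of at least 5, 11 with no filter or with only the 2 groups in the fit, and 3 to 7 when each mouse was left out. *Gfap* and *C4b* were called in all of these fits. With a mean FPKM of at least 5, which leaves 9031 genes, 33 genes were lower and 100 did not overlap on the lower side. In that filter 32 enriched genes and 1 of the not enriched class were lower, with 8 of homeostatic microglia, 3 of complement, 4 of ITAM and Fc receptors, 3 of leukocytes, 4 of lysosomes, 1 of premyelinating oligodendrocytes and 0 of 4 tested myeloid transcription factors, 0 of 8 genes of disease-associated microglia, 0 of 11 of OPCs, 0 lower of 15 of reactive astrocytes and 0 of 7 of mural and fibroblast cells. That filter removed the 4 called OPC genes before the test and left no border macrophage gene to test. With no filter 5 transcription factors, 28 leukocyte and 5 border macrophage genes were lower and 1 mature oligodendrocyte gene higher. With depth as a covariate 7 genes outside the enriched class, 5 lysosomal, 0 border macrophage, 1 OPC and 1 premyelinating gene were lower. With a pseudocount of 0.1, 1 MHC class II and 0 border macrophage genes were lower, and with quantile normalization 0 border macrophage genes. Fitting only the 2 groups gave 1 higher mature oligodendrocyte gene and 5 lower OPC genes.

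With each mouse left out, non-overlapping genes, higher, numbered 169 to 303 (fewer mice by construction), lower genes outside the enriched class 11 to 17, lysosomal 5 to 7, MHC class II 0 to 1, border macrophage 0 to 2, reactive astrocyte lower 1 to 2 and mature oligodendrocyte higher 0 to 1. With the replicate block 158 genes were lower and 8 higher, of which 154 and 5 were shared with the first calls, and 0 border macrophage genes were lower. With that block, and in a fit without the variance trend, 6 lysosomal genes were lower. *Tmem74b*, *Cyb5d1* and *Srd5a1* lost their calls under the block. Same-numbered mice correlated by -0.12 to 0.32 in their deviations, with 2 of 5 closest to their own number.

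Log2 fold changes that turned sign were all of genes not called. *Apoe* was at -0.047 with quantile normalization, -0.0018 with median scaling and -0.0035 with depth as a covariate, and between -0.0188 and 0.0424 without single mice. *Csf2ra* ranged from -0.0771 to 0.0962 and *Il34* from -0.0209 to 0.140 when single mice were left out, and *Pdgfrb* was at 0.0227 with depth as a covariate. Values near 1 FPKM rest on few reads, at 0.048 to 0.112 FPKM for 1 read of a 2 kb gene. The causes of these changes were not tested.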

Other observations

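Among genes that were not microglia-enriched, some had small p-values and non-overlapping groups without passing the threshold in limma. *Atp2a2*, the calcium pump of the endoplasmic reticulum, was at 27.6 ± 3.4 FPKM in control and 20.2 ± 1.8 after 14 days of PLX3397 (SD, n = 5 each, adjusted p = 0.0733). *Shc4*, an adaptor of receptor kinases, was at 1.46 ± 0.16 and 0.847 ± 0.27 FPKM (adjusted p = 0.0891). On the higher side, *Plekha1* was at 26.6 ± 1.2 and 33.2 ± 3.9 FPKM, *Aloxe3*, a lipoxygenase, at 2.75 ± 0.51 and 3.97 ± 0.53, and *Psmd1*, a subunit of the proteasome, at 86.7 ± 6.2 and 102 ± 3.2 (adjusted p = 0.165, 0.179 and 0.193). *Apbb3* and *Carhsp1* were at 129% and 121% of control with overlapping groups (adjusted p = 0.200 and 0.237).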
